A study of Homo sapiens with 6 samples.

Results

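The inhibitor of differentiation genes ID1, ID2 and ID3 were followed on bead arrays of HeyA8 cells, an established human ovarian cancer line, before and after magnetic fluid hyperthermia (MFH). The 3 genes, of 20046 that the platform annotation names, were read through 4 probes chosen by identifier, ILMN_1664861 for ID1, ILMN_2086095 and ILMN_1793990 for ID2 and ILMN_1732296 for ID3, among 47231 probes in the table. All 4 were present, and the annotation gave each the expected gene symbol. The annotation named 2 further probes of the family, ILMN_1665832 for ID1 and ILMN_1721758 for ID4, which are described as well. Total RNA came from 3 samples of parental HeyA8 cells left untreated and 3 samples of parental HeyA8 cells given MFH, in which magnetic particles are heated by an alternating field. No temperature, exposure or harvest time is given in the sources used here. The series has no arrays with particles alone or field alone, so heat, particles and field cannot be told apart. All samples are of 1 cell line, and separate cultures are not stated for the replicates, so every p-value reflects sample-to-sample spread that could be technical.

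ID proteins are helix-loop-helix proteins without the basic region that contacts DNA. They bind the E proteins (TCF3, TCF4 and TCF12) and so keep them and their tissue-specific partners off E-box sites, which holds back differentiation and favours proliferation. ID1, ID2 and ID3 are direct targets of bone morphogenetic protein (BMP) signalling, in which ligand-bound receptors phosphorylate SMAD1, SMAD5 and SMAD9. Their transcripts are short-lived, so their levels can change fast when transcription changes.

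The genes lie on 3 chromosomes of GRCh38.p14. ID1 spans chr20:31605289-31606510, ID2 spans chr2:8682056-8684461 and ID3 spans chr1:23557926-23559501, and ID4 spans chr6:19837370-19842197. The 250 bases before each annotated start are shown for the genes the results turn on, since all 3 were measured higher on the MFH arrays. The sequences are RefSeq's, 5′ to 3′ on the gene's strand, and capitals mark the motif matches described next. The windows are chr20:31605039-31605288 (plus strand), chr2:8681806-8682055 (plus strand) and chr1:23559502-23559751 (minus strand).
ID1: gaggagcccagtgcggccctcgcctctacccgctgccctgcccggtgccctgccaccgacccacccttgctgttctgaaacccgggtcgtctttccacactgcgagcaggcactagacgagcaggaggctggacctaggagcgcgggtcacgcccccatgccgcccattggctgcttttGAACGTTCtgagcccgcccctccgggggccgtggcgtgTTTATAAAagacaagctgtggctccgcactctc
ID2: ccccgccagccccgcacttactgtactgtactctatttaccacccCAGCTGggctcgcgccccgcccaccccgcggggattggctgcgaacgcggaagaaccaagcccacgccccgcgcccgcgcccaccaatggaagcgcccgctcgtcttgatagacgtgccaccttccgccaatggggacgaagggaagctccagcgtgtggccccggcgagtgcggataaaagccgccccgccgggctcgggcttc
ID3: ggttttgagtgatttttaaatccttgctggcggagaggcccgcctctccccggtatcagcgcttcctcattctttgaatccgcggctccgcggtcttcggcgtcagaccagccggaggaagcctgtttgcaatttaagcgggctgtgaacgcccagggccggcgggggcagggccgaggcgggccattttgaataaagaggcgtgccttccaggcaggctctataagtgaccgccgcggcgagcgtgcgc

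A search of both strands covered 8 motifs in these windows. The SMAD elements were the GC-rich form GGCGCC and the palindrome GTCTAGAC. The E-box was written CANNTG, which also matches its form CACGTG. The cyclic AMP response element was TGACGTCA, the AP-1 element was TGACTCA, a pair of inverted heat shock sites was GAANNTTC and the TATA box was TATAAA. The ID1 window held GAANNTTC between bases 71 and 64 before the start, and overlapping TATAAA matches on both strands between bases 33 and 26. The ID2 window held a CANNTG match between bases 205 and 200, and the ID3 window held no match. Among 35116 promoter windows of the same length, 5.78% held the heat shock motif, 10.7% the TATA box and 61.8% the E-box, while its form CACGTG was in 6.34% of all windows. The GC-rich SMAD motif was in 16.4% of them and the SMAD palindrome in 0.182%, the AP-1 motif in 4.20% and the cyclic AMP motif in 1.65%. Guanine and cytosine made up 66.0% of the ID1 window, 69.2% of the ID2 window and 62.0% of the ID3 window, against a median of 58.0% over all windows.

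Bead intensities are given as deposited (raw) and as normalised levels, that is, log2 values after background correction and quantile normalisation. Changes are MFH minus untreated on the log2 scale. They were tested with limma on the 23615 probes whose mean level exceeded the median probe, with Benjamini-Hochberg adjustment and a threshold of 0.05. Of these probes 12.3% passed in either direction, 5.7% higher and 6.58% lower after MFH. The median change over all tested probes was -0.0087, and the middle 50% ran from -0.13 to 0.12. Median raw intensities of the arrays were 103 to 114 in untreated cells and 102 to 127 after MFH, and 43.7% to 46.4% of probes on an array lay above background (the mode of the raw intensities plus 2 SD of the values below it). Of 13 heat shock probes 8 rose and 0 fell in limma (1 was lower at an unadjusted p under 0.05). The probes of vimentin, a mesenchymal filament, had raw intensities of 15824 and 15647 in untreated cells. Of the marker probes 7 of 7 mesenchymal, 5 of 9 epithelial, 6 of 10 ovarian cancer, 4 of 14 blood and vessel and 1 of 8 fibroblast and muscle ones were above background on all 6 arrays. Those of CDH1 (epithelial cadherin), CD3E (T cells) and VWF (vessel cells) lay above it on none, whereas the keratins KRT7, KRT8 and KRT19, PAX8 and CD68 (macrophages) were detected on all. Called marker probes were KRT8 (-0.34) and 2 of 3 PAX8 probes (-0.64 and -0.61), which fell, and ACTA2 (smooth muscle actin, 0.40), which rose, on the log2 scale. Their part in the results was not tested.

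On the MFH arrays ID2 was 4.69-fold and 4.38-fold higher at its 2 probes and ID3 1.51-fold higher, whereas ID1 did not pass the adjusted test. The size for ID2 depended on MFH replicate 1, without which its log2 changes were 1.59 and 1.70. The share of member probes called, 3 of 4 and all higher, compares with 12.3% called in either direction and 5.7% called higher over all tested probes. Both probes of ID2 were among the 3. The further ID1 probe and the ID4 probe, which were not members, were not called. Members were chosen with earlier results of these data known, so the share called is a description and not a test of the family. The MFH arrays differed in their values for ID2, and after normalisation they fell in another order for ID1 and ID3.

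ID2 is the member best known for binding E proteins in blood and neural lineages and for its link to the retinoblastoma protein. Probe ILMN_2086095 read raw intensities of 171, 166 and 188 in untreated replicates 1, 2 and 3, and of 2059, 498 and 393 in MFH replicates 1, 2 and 3. All MFH values lay far above all untreated values, and MFH replicate 1 stood well above both other MFH arrays. The normalised level went from 7.17 ± 0.15 to 9.40 ± 1.13 (SD, n = 3 each), a change of 2.23 ± 0.36 (SE) or 4.69-fold, with a limma adjusted p of 0.00094. Its 95% interval, also from limma, ran from 2.74-fold to 8.02-fold. Limma draws the variance of each probe towards that of other probes, which holds for every SE and interval of a change given here. The pooled SD of this probe was 0.81, and with a trend and robust variance model the SE of its change was 0.62. The interval may therefore be too narrow.

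The second ID2 probe, ILMN_1793990, gave a like picture. Its raw intensities were 171, 134 and 144 in untreated replicates 1, 2 and 3 and 1178, 453 and 347 in MFH replicates 1, 2 and 3. The groups again did not overlap, and the MFH arrays fell in the same order as with the first probe. After normalisation, all 3 MFH values lay above all 3 untreated values in 12.8% of all tested probes. That share stands beside each separation of a probe's normalised levels reported here. The share of probes that separate in raw intensity was not computed. The normalised level went from 6.88 ± 0.13 to 9.01 ± 0.80 (SD, n = 3 each), a change of 2.13 ± 0.26 (SE) or 4.38-fold (limma adjusted p = 0.00010). Both ID2 probes were above background on all 6 arrays, so the rise was measured from a detected level. That level was low, however, and the offset of 50 makes such log2 changes smaller. With an offset of 16 the changes were 2.53 and 2.52. With the offset of 50 the ID2 probes ranked 24th and 27th among the rises of all tested probes. Both were then among the probes called higher by at least 4-fold, which made up 0.127% of those tested.

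The rise of ID2 held on every MFH array but differed in size. Over the untreated mean, ILMN_2086095 was 11.2-fold higher on MFH replicate 1, 3.79-fold on replicate 2 and 2.43-fold on replicate 3. For ILMN_1793990 the same figures were 7.77-fold, 4.19-fold and 2.58-fold. Without MFH replicate 1 the changes were 1.59 and 1.70 with limma adjusted p-values of 6.8e-05 and 5.0e-05, so the direction did not rest on that array. The standard deviation of ILMN_2086095 over the MFH arrays, 1.13, was the highest of all 23615 tested probes, and that of ILMN_1793990, 0.80, was reached or exceeded by 16 probes, itself included. The median tested probe had a standard deviation of 0.12 over these arrays. Over untreated arrays ILMN_2086095 spread by 0.15, a value that 30.8% of tested probes reached. Limma with a trend and robust variance model gave ILMN_2086095 an adjusted p of 0.11, and ILMN_1793990 an adjusted p of 0.036.

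**Figure D1:**
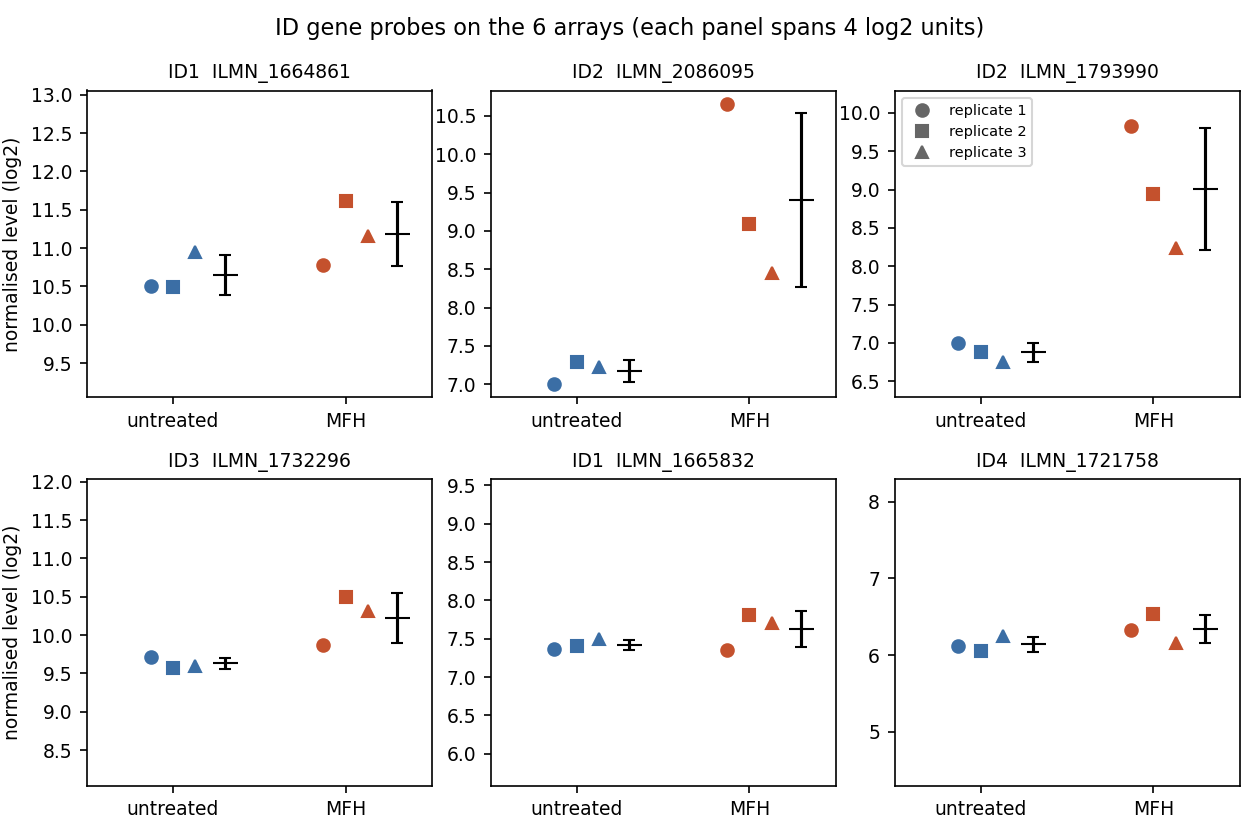
Normalised levels (log2 intensity) of the 6 ID gene probes on untreated (blue) and MFH (orange) arrays. Symbols mark the replicate, black bars the mean ± SD of 3 arrays, and every panel spans the same log2 range. Both ID2 probes lie higher on all MFH arrays, with MFH replicate 1 at the top, while MFH replicate 1 is the lowest MFH array for ID1 and ID3.

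ID3, which like ID1 is a BMP-induced partner of E proteins, rose less but evenly in raw intensity. Probe ILMN_1732296 read 959, 674 and 837 in untreated replicates 1, 2 and 3 and 1203, 1274 and 1304 in MFH replicates 1, 2 and 3. No MFH value reached down to an untreated one. The normalised level went from 9.63 ± 0.07 to 10.22 ± 0.32 (SD, n = 3 each), a change of 0.59 ± 0.14 (SE) or 1.51-fold (95% interval 1.23-fold to 1.85-fold), with a limma adjusted p of 0.011. After normalisation MFH replicate 1 was 1.18-fold above the untreated mean, replicate 2 was 1.82-fold and replicate 3 was 1.60-fold above it. Without MFH replicate 2 the change was 0.46 and the limma adjusted p was 0.061, and without MFH replicate 1 the change was 0.77 with an adjusted p of 0.00092.

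ID1, the founding member of the family, was read by ILMN_1664861 at 1620, 1242 and 2041 in untreated replicates 1, 2 and 3 and at 2250, 2787 and 2350 in MFH replicates 1, 2 and 3. Every raw MFH value was higher than every untreated value, as was also so at the uncalled probes ILMN_1665832 and ILMN_1721758 described below. No share over all probes stands beside this raw separation. After normalisation the groups overlapped, since MFH replicate 1, at a level of 10.78, lay below untreated replicate 3 at 10.94. The change was 0.54 ± 0.18 (SE) or 1.45-fold, with a 95% interval of 1.12-fold to 1.89-fold. The unadjusted limma p was 0.0089 and the adjusted p 0.064, so ID1 missed the threshold at a size close to that of ID3. The adjusted p was 0.012 without MFH replicate 1, with a change of 0.74, and 0.037 without untreated replicate 3, with a change of 0.69.

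The other ID1 probe, ILMN_1665832, was far dimmer, with raw intensities of 211, 175 and 220 in untreated replicates 1, 2 and 3 and 237, 224 and 257 in MFH replicates 1, 2 and 3. Its change of 0.21 ± 0.12 (SE) did not pass (limma adjusted p = 0.33), and its normalised groups overlapped. Both ID1 probes carry the same transcript accession in the annotation, and on the normalised scale both had MFH replicate 1 as the lowest MFH array. ID4, which can dimerise with the other ID proteins, was near background. Its probe ILMN_1721758 read 106, 94.2 and 111 in untreated replicates 1, 2 and 3, none above background, and 132, 116 and 118 in MFH replicates 1, 2 and 3, of which 2 were above it (limma adjusted p = 0.31).

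Within arrays, the change of ID2 exceeded that of the other members. The change of ILMN_2086095 was larger than that of ID3 by 1.64 and than that of ID1 by 1.69, and the change of ILMN_1793990 was larger by 1.54 and 1.59. In these 4 pairs the differences on MFH arrays did not overlap those on untreated arrays, which gave an exact two-sided permutation p of 0.1, the smallest that 3 arrays against 3 can give, and 0.15 after adjustment over the 6 pairs. The changes of ID1 and ID3 differed by -0.06 (exact permutation p = 0.8). The changes of the ID2 probes differed by 0.10 (exact permutation p = 0.8). The members' levels are not set against each other, since intensities of different probes are not on a common scale.

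**Figure D2:**
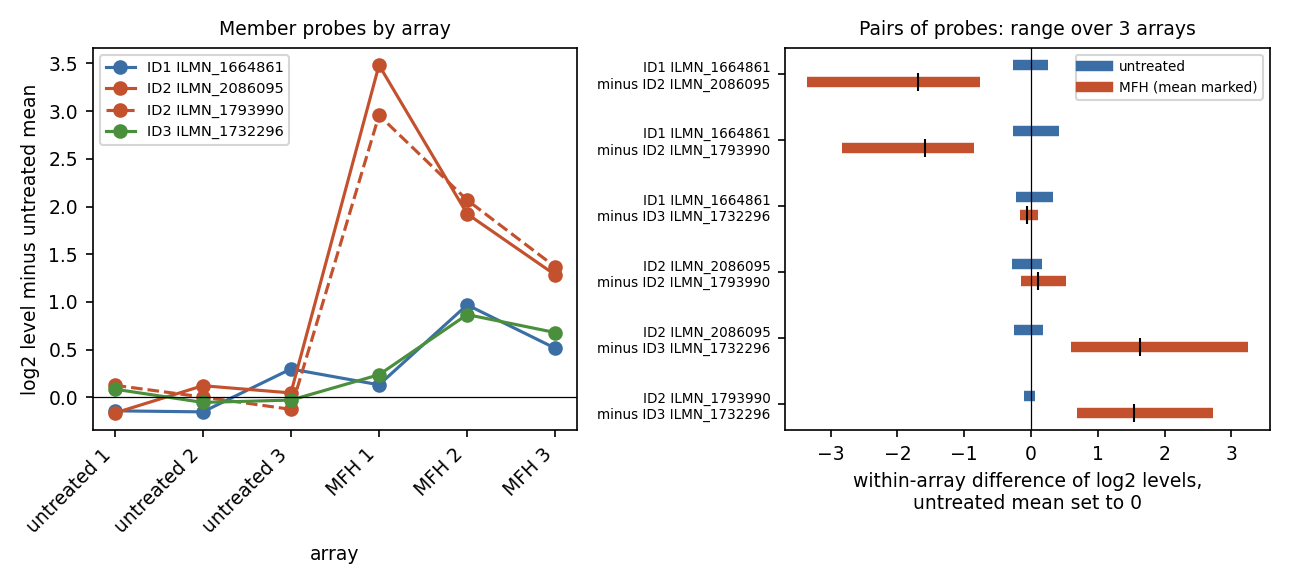
Left, the log2 level of each member probe on each array minus its untreated mean. Right, for each pair of member probes, the range over 3 arrays of their within-array difference in log2 level, with the untreated mean set to 0 and the MFH mean marked. ID2 and the pair ID1 and ID3 separate on all MFH arrays, by most on MFH replicate 1.

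The order of the MFH arrays was not shared by the family. In normalised levels ID2 was highest on MFH replicate 1 and lowest on replicate 3, while ID1 and ID3 were highest on replicate 2 and lowest on replicate 1. In raw intensity ID3 was highest on replicate 3. Among the 186 tested probes that rose at least 2-fold, MFH replicate 1 was the highest MFH array for 85, replicate 2 for 55 and replicate 3 for 46. In 11 of these 186, ILMN_2086095 among them, MFH replicate 1 exceeded both other MFH arrays by more than 1 on the log2 scale. MFH replicate 1 was also the array with the highest median raw intensity, 127, followed by MFH replicate 3 at 123, while MFH replicate 2 was at 102. The part of MFH replicate 1 in the size of the ID2 change was not tested beyond leaving it out.

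The probes with the most similar profiles over the 6 arrays were found by the root mean square difference of log2 levels centred on the untreated mean, among 17192 other tested probes with a single gene symbol. For ID2 (ILMN_2086095) the nearest was the other ID2 probe, at 0.27, followed by ILMN_3234762 of the 5S ribosomal RNA gene RNA5S9 at 0.30 and ILMN_1654566 of the HSP70 family member HSPA1L at 0.31. RNA5S9 is a copy of a repeated gene and HSPA1L resembles other HSP70 genes, so either probe may also read relatives. The HSPA1L probe read 1184, 472 and 457 on MFH replicates 1, 2 and 3, against 152, 147 and 161 on untreated replicates 1, 2 and 3, the order seen for ID2. For ID3 the nearest were the kinase gene MARK3 at 0.057, the pseudogene RP9P at 0.071 and the kinase gene MAP2K3 at 0.072. For ID1 they were SNF8, of the endosomal sorting machinery, at 0.13, TMEM79 at 0.14 and RP9P at 0.15, and ID3 came 17th at 0.19. From ID1, the ID2 probe ILMN_2086095 lay at 1.47, farther than nearly all other probes, at rank 17177.

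The rest of the BMP pathway was described from lists of ligands, receptors, SMADs with cofactors, antagonists and other target genes. Of 70 listed genes 67 had a probe, and 66 of their 98 probes were tested. In limma 7 rose and 2 fell, or 13.6% called beside 12.3% over all tested probes. By direction 10.6% were higher, beside 5.7% over all, and 3.03% lower, beside 6.58%. The median change was 0.07, beside -0.0087 over all. Of 6 tested ligand probes limma called 0, also at an unadjusted p under 0.05, and the changes ran from -0.06 to 0.09.

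Of 11 tested receptor probes 1 rose and 1 fell (18.2% called), and of 14 tested probes of SMADs and cofactors 1 rose and 1 fell (14.3%). ACVR2A, a type II receptor, rose 1.48-fold at ILMN_2152711 (limma adjusted p = 0.0034), whereas its other probe, ILMN_1670912, had a change of 0.30 and an adjusted p of 0.083. ACVR1, a type I receptor for BMPs, fell by 0.45 ± 0.10 (SE) on the log2 scale, from a raw intensity of 1239 ± 154 to 971 ± 252 (SD, n = 3 each, limma adjusted p = 0.0087). The cofactor list held RUNX2, an osteoblast transcription factor, which fell by 0.64 ± 0.11 at ILMN_1716651, and ZNF521, a zinc finger protein, which rose by 0.48 ± 0.10 (SE, limma adjusted p = 0.0013 and 0.0053). The other tested RUNX2 probe, ILMN_2377746, had a change of 0.14 and a limma adjusted p of 0.50. Of the antagonists and brakes, 1 of 20 tested probes was called: follistatin (FST), which binds activins and some BMPs, rose 1.35-fold at ILMN_1700081 (limma adjusted p = 0.019). The other FST probe, ILMN_1712896, had a change of 0.30 and a limma adjusted p of 0.074.

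Among other BMP targets 4 of 15 tested probes rose and 0 fell in limma (9 and 0 at an unadjusted p under 0.05), with a median change of 0.32. The 26.7% called higher, which are probes of 3 genes, stand beside 5.7% over all tested probes. Like the other lists, this one was chosen with earlier results of these data known. BAMBI, a decoy receptor that dampens TGF-beta family signalling, read 647, 479 and 641 on untreated replicates 1, 2 and 3 and 1591, 1146 and 1235 on MFH replicates 1, 2 and 3. Its raw values did not overlap between the groups, and it rose 2.25-fold (limma adjusted p = 3.0e-06). TBX3, a T-box repressor, rose 2.13-fold at ILMN_1713449 (adjusted p = 0.00014 in limma), from 494 ± 6.0 to 1093 ± 390 (SD, n = 3 each), with 1542 on MFH replicate 1 against 895 and 841 on the others. The other tested TBX3 probe, ILMN_1701393, had a change of 0.29 and a limma adjusted p of 0.15. SNAI2, the repressor Slug, rose 1.93-fold and 1.49-fold at its 2 probes (limma adjusted p = 0.00017 and 0.022). The inhibitory SMAD7, a feedback target, had changes of 0.35 and 0.32 at its probes (limma adjusted p = 0.092 and 0.17), and SMAD6 and ATOH8 were below the filter. Over left-out arrays 3 to 6 of these probes rose.

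Of the basic helix-loop-helix genes that ID proteins act on or beside, 2 probes rose and 3 fell out of 13 tested, with a median change of -0.28. That is 15.4% higher and 23.1% lower, beside 5.7% and 6.58% over all tested probes. The E proteins themselves did not pass: TCF3 had a change of -0.31 (limma adjusted p = 0.051), TCF4 of -0.10 (0.63), and the tested TCF12 probes of -0.42 (0.063) and -0.28 (0.12). HES4, a repressor related to the Notch target HES1, fell by 1.16 ± 0.14 (SE) on the log2 scale, from a raw intensity of 1722 ± 416 to 817 ± 143 (SD, n = 3 each, limma adjusted p = 9.5e-05). TWIST1 and TWIST2, partners of E proteins in mesenchymal cells, fell by 0.69 ± 0.12 and 0.51 ± 0.11 (SE, limma adjusted p = 0.0020 and 0.0061). MXD1, which competes with MYC for MAX, rose 2.12-fold (limma adjusted p = 4.4e-05). HEYL, a Notch target, was not above background on any untreated array and read 308, 180 and 147 on MFH replicates 1, 2 and 3 (limma adjusted p = 0.0051). Over the 16 alternatives 2 to 5 probes of this list fell and 1 to 2 rose. Without MFH replicate 1, 5 fell and 2 rose, with median scaling 2 fell, and with a trend and robust variance model 1 rose. Of 6 tested probes of cell cycle inhibitors that E proteins can induce, the CDKN1B probe ILMN_1722811 was called in limma, where it fell by 0.33 ± 0.10 (SE, limma adjusted p = 0.047), and it was called in 3 of the 16 alternatives. The other CDKN1B probe, ILMN_2196347, had a change of -0.34 and a limma adjusted p of 0.15.

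Since ID transcripts turn over fast, they were set beside 28 tested probes of other short-lived early response transcripts. Of these 3 rose and 9 fell in limma, 10.7% and 32.1% beside 5.7% and 6.58% over all tested probes, and the median change was -0.07. The rises were both probes of KLF4, a zinc finger factor, at 2.36-fold and 1.97-fold (limma adjusted p = 0.00011 and 0.0027), and IER5, an immediate early gene, at 2.10-fold (limma adjusted p = 0.00011). KLF4 at ILMN_2137789 read 2053, 919 and 988 on MFH replicates 1, 2 and 3 against 580, 446 and 556 on untreated replicates 1, 2 and 3, so it too was highest on MFH replicate 1. The falls comprised KLF6, FOSL1, 1 of 2 MCL1 probes, IER3, JUNB, KLF2, ZFP36 and both MYC probes, with log2 changes from -0.71 to -0.35. The other 16 did not pass, with changes from -0.35 (KLF10) to 0.94 (FOSB, limma adjusted p = 0.058), EGR3 at 0.70 (0.076) and FOS at -0.02 among them. The number of falls depended on the processing: it was 5 without MFH replicate 2, 5 without untreated replicate 3, 6 without MFH replicate 1, 5 with an offset of 16 and 2 with median scaling. The number of rises was 5 without MFH replicate 3.

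**Figure D3:**
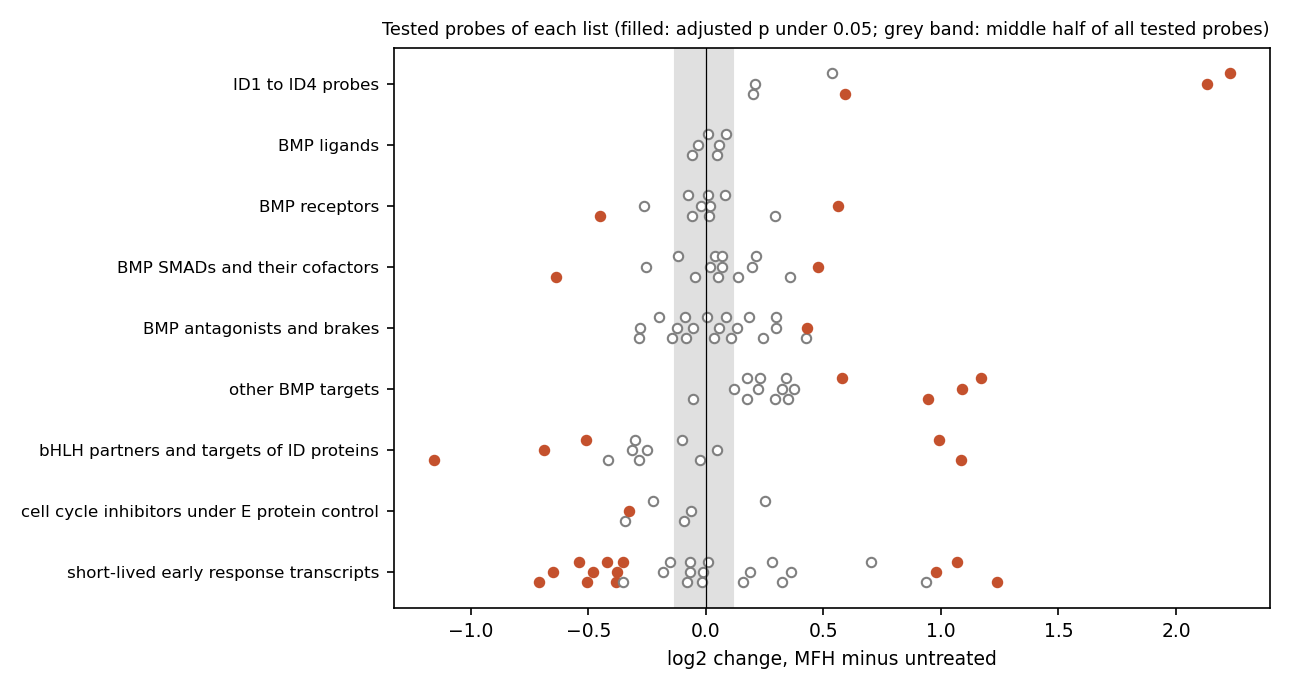
Log2 change after MFH of each tested probe of the ID genes and of 8 gene lists, with called probes filled. The grey band holds the middle 50% of all 23615 tested probes. The ID2 probes lie farthest right of all points shown, BMP ligands cluster at 0, and 14 of 15 probes of other BMP targets lie above 0.

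**Figure D4:**
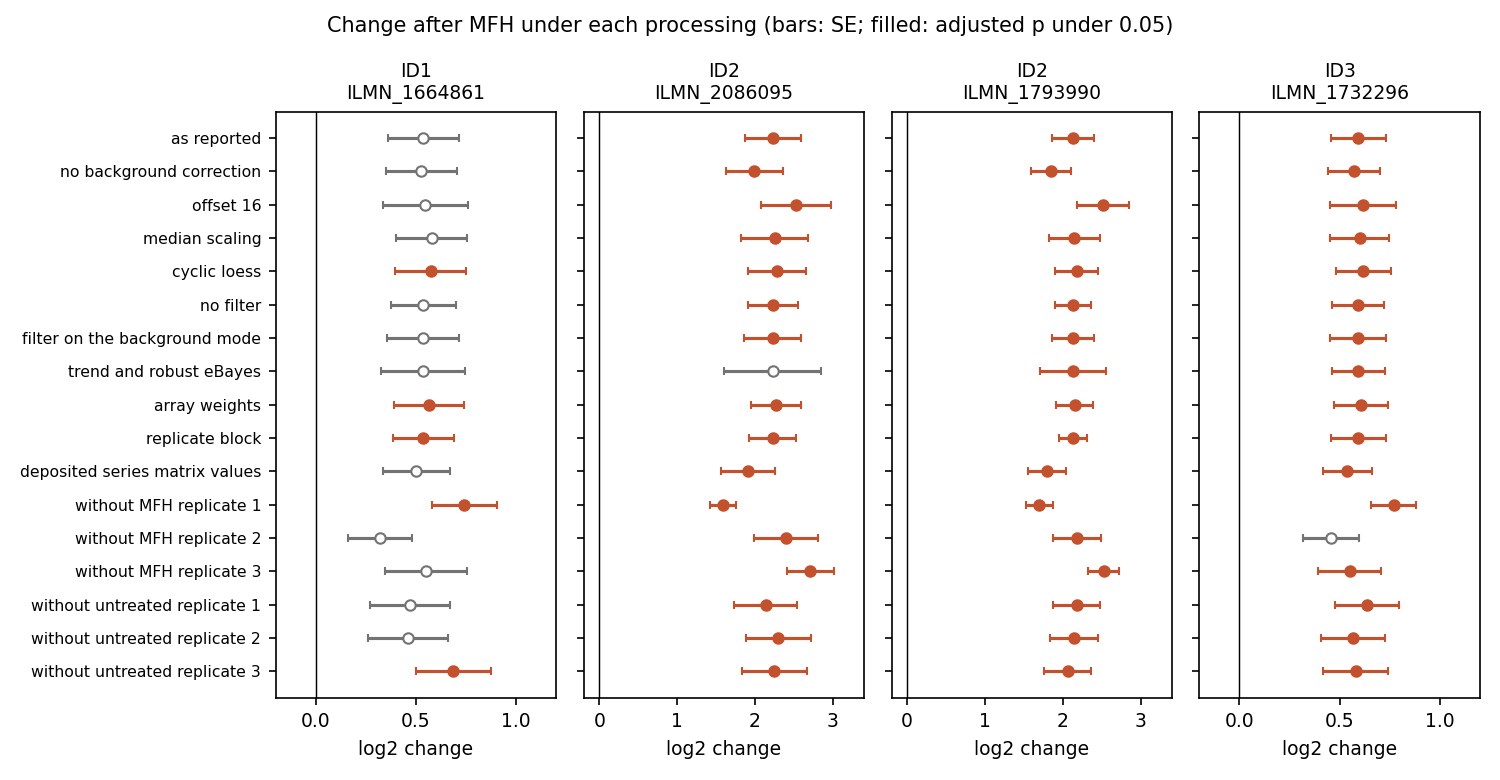
Log2 change of each member probe under the reported processing and each alternative, with SE bars and filled points where the limma adjusted p was under 0.05. The horizontal scale is wider for ID2. All points lie above 0. ID1 has filled points under 5 alternatives, and ILMN_2086095 of ID2 and ILMN_1732296 of ID3 each have a single open point.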

How the data were processed

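RNA of HeyA8 cells was labelled with biotin and hybridised to 6 Illumina bead arrays, 3 per group. Per the submitters' processing notes the intensity values were exported with BeadStudio, and the authors deposited them on a linear scale without normalisation and without detection p-values. A second deposited table holds log2 values whose ranks match those of the same arrays. Its sorted columns agree within 0.001, so it is quantile-normalised, and its columns share a median of 6.73, so it is not centred on 0, while the treatment of background is not stated. Groups came from the sample titles, columns were matched by name, and 0 value columns were left over.

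Intensities were corrected with normexp (offset 50), quantile normalised and put on the log2 scale in limma 3.58.1 under R 4.3.3. The filter, test and threshold are given with the results, and group was the only term. Gene symbols came from the platform annotation, which gave 30113 probes a single symbol, 8 several and 17110 none here. The rule for named genes took all ID probes, called BMP pathway probes, up to 4 called probes of each other list with the smallest p, and the nearest profiles. TCF3, TCF4, TCF12, SMAD6, SMAD7, ATOH8, the second RUNX2, ACVR2A, TBX3, FST and CDKN1B probes, the marker genes and further short-lived transcripts were named after their values were seen. Members and lists were chosen with earlier results of these data known. In simulated data for this comparison, with 23615 probes tested, limma called 47.1% of changes made 1.5-fold, 74.8% of those made 2-fold and 90.8% of those made 4-fold. The simulation gave every probe the same log2 spread in both groups, besides background noise. The member probes had standard deviations of 0.32 to 1.13 over the MFH arrays, so these shares may not hold for them. The number of arrays limits the precision. Alternatives are listed in the closing section.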

Additional observations from a re-analysis of the deposited data

How the results depend on the processing

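All 4 member probes kept a positive change under all 16 alternatives, with ranges of 0.32 to 0.74 for ID1, 1.59 to 2.71 for ID2 at ILMN_2086095, 1.70 to 2.52 at ILMN_1793990 and 0.46 to 0.77 for ID3 (log2). ID1 passed the limma threshold in 5 of them: cyclic loess (0.57), array weights (0.57), the replicate block (0.54, adjusted p = 0.036), without MFH replicate 1 (0.74) and without untreated replicate 3 (0.69). ID2 at ILMN_2086095 missed it with trend and robust eBayes (2.23, adjusted p = 0.11) and ID3 without MFH replicate 2 (0.46, adjusted p = 0.061). Deviations of arrays sharing a number correlated at 0.0039, 0.060 and -0.036, so the numbers were not taken as pairs. The replicate block ended no other member's call, and gave 2870 calls over all probes, 2710 of them shared with the 2902 reported. With the deposited log2 table the changes were 0.50, 1.91, 1.79 and 0.54 for ID1, ILMN_2086095, ILMN_1793990 and ID3. Differences between members that changed sign were ID1 minus ID3 (0.11 without untreated replicate 3, range -0.17 to 0.11 over left-out arrays) and ILMN_2086095 minus ILMN_1793990 (-0.05 without untreated replicate 1 and -0.11 without MFH replicate 1, range -0.11 to 0.22). Over left-out arrays ID1 minus ID2 ran from -2.15 to -0.86 and from -1.96 to -0.98 for the 2 ID2 probes, and ID2 minus ID3 from 0.83 to 2.15 and from 0.94 to 1.96.

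Calls over all probes fell to 1030 with median scaling (549 higher, 481 lower), 1479 at an adjusted p of 0.01 (719 and 760) and 992 with at least 1.5-fold (574 and 418), and ran from 1995 to 2589 over left-out arrays (974 to 1191 higher, 1021 to 1398 lower, the 1021 without untreated replicate 3). With cyclic loess the split turned to 1527 higher and 1375 lower. BMP pathway calls, 7 higher and 2 lower, were 5 with median scaling (4 and 1), 4 with at least 1.5-fold (3 and 1) and 6 to 10 over left-out arrays (5 to 8 higher, 1 to 3 lower, 1 without MFH replicate 2). The stricter thresholds lower counts by construction, and the cause of the other differences was not tested. The alternatives for the other lists were added after seeing the data. A slide block was not run, since no slides are given.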

Other observations

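Of the 11 probes that rose at least 2-fold and exceeded both other MFH arrays by more than 1 (log2) on MFH replicate 1, 9 had a single gene symbol, and they are named here because of their values, with no test of any gene class. They comprised RMRP, the RNA of a mitochondrial RNA processing ribonuclease, RPPH1, the RNA of ribonuclease P, and 2 probes of RNU6ATAC, a minor spliceosomal RNA. RMRP read 1745, 480 and 372 on MFH replicates 1, 2 and 3 and 144, 103 and 133 on untreated replicates 1, 2 and 3. RPPH1 read 4155, 1403 and 1229 on MFH replicates 1, 2 and 3, against 303, 220 and 311 on untreated ones. The others were 2 probes of CCDC121 and 1 each of RASD1, SUCNR1 and ID2, of which CCDC121 at ILMN_1739054 had the widest gap, 1.61, and ID2 the third widest, 1.56.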
